A study of Mus musculus with 10 samples.

Results

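March7, Numa1, Safb, Nedd9, Dynll1, Txnl4a, Txlng and Tnfsf10 are 8 protein-coding genes with small differences between RetSat ko and control jejunum and no overlap of the groups. They were chosen by their levels in these same 10 libraries, as genes whose 5 RetSat ko values were all above, or all below, the 5 control values, which holds for all 8 once counts are scaled with TMM factors. They are 8 of 377 such genes among 15182 tested protein-coding genes, out of 18654 tested genes and 55414 identifiers in the files. They are not a random part of the 377, as they stand at places 3 to 14 by the p-value of the edgeR fit. Safb, Dynll1 and Txnl4a were higher in RetSat ko, and March7, Numa1, Nedd9, Txlng and Tnfsf10 were lower. Because the comparison of genotypes picked these genes, their differences are given as a description, without a test.

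The tissue was jejunum, the middle stretch of the small intestine, profiled by RNA sequencing in 10 libraries from male mice of the C57BL/6J strain. In the 5 RetSat ko libraries the mice were RetSat flox/flox and carried villin-Cre-ERT2, a Cre recombinase that the villin promoter drives in intestinal epithelium and that tamoxifen activates. In the 5 control libraries the mice were RetSat flox/flox without that transgene. Both genotypes had floxed alleles, tamoxifen for 5 days and then a high-fat diet with 60 kcal% fat for 14 weeks. Loss of the enzyme and presence of active Cre therefore cannot be told apart. Since the labels do not say that the libraries are from separate animals, a p-value here measures only how these samples spread, which may be technical. No library without tamoxifen or on another diet was analysed here.

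RetSat encodes retinol saturase, an enzyme that acts on vitamin A. The 8 genes belong to different cellular machines. SAFB binds DNA and RNA of the nuclear matrix, and in human cells it acts as a corepressor of the oestrogen receptor. TXNL4A is a small protein of the U5 snRNP, a core particle of the spliceosome. DYNLL1 is a light chain of cytoplasmic dynein and binds many other proteins as well. NuMA, made from Numa1, anchors dynein at spindle poles and at the cell cortex, where it helps to orient division. NEDD9 is a docking scaffold of focal adhesions that also binds the mitotic kinase Aurora A. Gamma-taxilin, made from Txlng, binds syntaxins, and in mouse osteoblasts it restrains the transcription factor ATF4. MARCH7 is a membrane-associated RING ubiquitin ligase, and Tnfsf10 encodes TRAIL, a ligand that can trigger death of the cells it binds.

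Depth was 102844680 to 128730695 counts per library, and 24559 to 26180 genes had at least 1 count. Levels below are CPM, counts per 1000000 of a library size adjusted with TMM factors. Retsat itself stood at 16.8, 16, 16.4, 15.4 and 33.4 CPM in RetSat ko 1 to 5, against 518, 387, 576, 340 and 381 CPM in control 1 to 5. Every RetSat ko library was far below every control library, and the edgeR quasi-likelihood test gave a log2 fold change of -4.49 ± 0.277 (SE) and an adjusted p of 0.000101. Esr1, whose hormone-binding part is built into Cre-ERT2, was at 33.3 to 45.8 CPM in RetSat ko and 0.496 to 0.686 CPM in control, which follows the labelled transgene. Of 16 marker lists for cell types of the jejunum and its surroundings, 0 passed an adjusted p of 0.05 in an exact permutation test of the summed level between genotypes (smallest adjusted p 0.402, smallest possible unadjusted p 0.00794). Every list had its genes detected in at least 1 library. The 12 absorptive enterocyte markers, the defining cells of this tissue, summed to 42088 to 61425 CPM in RetSat ko and 45344 to 71962 CPM in control. The 14 markers of proliferating crypt cells summed to 466 to 708 CPM in RetSat ko and 489 to 561 CPM in control. RetSat ko 1 alone made the groups overlap, as RetSat ko 2 to 5 were at 598 to 708 CPM (exact permutation p over all 10 libraries 0.0714, adjusted 0.402). The 12 pancreatic acinar markers summed to 35.6 to 2708 CPM in RetSat ko, highest in RetSat ko 2, and 24.7 to 288 CPM in control, highest in control 5. The 10 B cell markers ranged over 11 to 162 CPM in RetSat ko and 7.92 to 71 CPM in control. The part of these markers in the results on the 8 genes was not tested beyond leaving out the libraries highest in them. In whole tissue, fewer cells of a type and less RNA per cell cannot be told apart.

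With edgeR, 6 of 18654 genes passed an adjusted p of 0.05, or 0.0322%, and none of the 8 genes did. Non-overlapping groups were found in 430 of all tested genes (2.31%) and in 377 of the protein-coding ones (2.48%). Among protein-coding genes, 256 lay higher in RetSat ko (1.69%) and 121 lay lower (0.797%). The 8 genes split 3 higher to 5 lower. Absolute log2 fold changes of the 8 genes were 0.29 to 0.49, with a median of 0.419, beside a median of 0.133 over tested protein-coding genes. Nothing is read from this contrast, since it is the one that chose the genes. Ordered by the p-value of the edgeR fit, the 377 genes began with Esr1 and Retsat. March7 was at place 3 and Txnl4a at place 14. Between those places stood 4 genes outside the list. They were Abcg8, a sterol exporter, at -0.47 ± 0.0783 (log2 fold change ± SE), Pglyrp1, a peptidoglycan-binding protein, at 0.43 ± 0.0714, Hspe1, a mitochondrial chaperonin subunit, at 0.41 ± 0.0727, and D030056L22Rik at 0.46 ± 0.0891. Just after Txnl4a came Luc7l, a splicing protein, at 0.41 ± 0.0816, and Tmed9, a cargo receptor of the early secretory pathway, at 0.32 ± 0.0661.

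Safb (ENSMUSG00000071054.13) lies at chr17:56891825-56913294 on the plus strand (GRCm39, as are all gene positions below, from the files). It was at 69.7, 74.7, 70.2, 63.9 and 79.8 CPM in RetSat ko 1 to 5, against 54.1, 56.4, 58, 54.5 and 52.9 CPM in control 1 to 5. RetSat ko 5 was the highest and RetSat ko 4 the closest to control, and the control libraries lay within a narrower band than the RetSat ko ones. The means were 71.7 ± 5.95 CPM in RetSat ko and 55.2 ± 2 CPM in control (SD, n = 5 each), and the log2 fold change was 0.38 ± 0.0657 (SE). Its paralogue Safb2, which also binds the nuclear matrix, starts 397 bases away on the opposite strand. The 250 bases before and 50 bases after each start are shown because the windows of the pair share 104 bases, in capitals, read on opposite strands (RefSeq, GRCm38.p6, Safb chr17:56584732-56585031 plus strand, Safb2 chr17:56584536-56584835 minus strand).
Safb: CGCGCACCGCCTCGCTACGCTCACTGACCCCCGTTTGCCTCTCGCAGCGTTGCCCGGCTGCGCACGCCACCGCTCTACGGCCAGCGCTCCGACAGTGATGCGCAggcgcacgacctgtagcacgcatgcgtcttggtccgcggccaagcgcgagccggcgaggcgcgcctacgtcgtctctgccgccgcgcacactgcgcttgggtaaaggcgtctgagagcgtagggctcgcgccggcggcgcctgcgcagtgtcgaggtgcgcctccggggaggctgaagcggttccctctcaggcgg
Safb2: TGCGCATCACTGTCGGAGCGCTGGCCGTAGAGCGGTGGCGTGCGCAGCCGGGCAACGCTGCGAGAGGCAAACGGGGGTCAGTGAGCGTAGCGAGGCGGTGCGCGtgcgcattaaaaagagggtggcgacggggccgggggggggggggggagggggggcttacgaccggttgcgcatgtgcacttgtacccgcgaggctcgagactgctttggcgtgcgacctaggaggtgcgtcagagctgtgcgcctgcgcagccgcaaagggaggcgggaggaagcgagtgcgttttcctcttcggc
Safb2, which the contrast did not choose, averaged 41.5 ± 5.82 CPM in RetSat ko and 36.9 ± 1.47 CPM in control (SD, n = 5 each), and its ranges overlapped at 33.7 to 47.9 CPM in RetSat ko and 34.8 to 38.4 CPM in control. Its log2 fold change was 0.17 ± 0.0903, with an edgeR adjusted p of 0.469. Of the 50-base words in annotated Safb transcripts, 7.41% also occur in Safb2, so a small share of reads may have no single origin.

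Dynll1 (ENSMUSG00000009013.6) lies at chr5:115435169-115439058 on the minus strand. It had 39.1, 41.4, 41.1, 34.6 and 40.2 CPM in RetSat ko 1 to 5, against 27.8, 25.3, 25.3, 32.5 and 30.3 CPM in control 1 to 5. RetSat ko 4 and control 4 came closest, and the gap between the groups was the narrowest of the 8 genes at 0.09 on the log2 scale. The means were 39.3 ± 2.77 CPM in RetSat ko and 28.3 ± 3.17 CPM in control (SD, n = 5 each), and the log2 fold change was 0.48 ± 0.0842 (SE). Its promoter is shown because it holds 2 copies of the CCAAT box. That motif was found in 4 of the 7 promoters of these genes that could be searched, beside 37.4% of 32544 distinct promoter windows. The copies are in capitals and start at bases 190 and 221 of the window (RefSeq, GRCm38.p6, chr5:115300941-115301240, minus strand, 250 bases before to 50 after the start).
Dynll1: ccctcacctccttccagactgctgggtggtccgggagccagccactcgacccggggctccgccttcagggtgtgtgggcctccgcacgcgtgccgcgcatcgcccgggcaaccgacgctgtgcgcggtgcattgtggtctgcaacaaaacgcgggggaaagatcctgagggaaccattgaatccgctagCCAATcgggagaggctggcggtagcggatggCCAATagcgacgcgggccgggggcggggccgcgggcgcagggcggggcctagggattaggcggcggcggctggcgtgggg
The paralogue Dynll2, which encodes the other LC8 light chain, averaged 309 ± 14.8 CPM in RetSat ko and 312 ± 25.2 CPM in control (SD, n = 5 each), at a log2 fold change of -0.01 ± 0.0748. Atmin, a transcription factor that activates Dynll1 in vertebrate cells, averaged 20.6 ± 2.01 CPM in RetSat ko and 20.6 ± 1.24 CPM in control, at 0.00 ± 0.078 (singled out after its value was seen).

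Numa1 (ENSMUSG00000066306.14, chr7:101583318-101664171, plus strand) had 117, 109, 106, 108 and 101 CPM in RetSat ko 1 to 5, against 137, 129, 158, 141 and 146 CPM in control 1 to 5. RetSat ko 1 was nearest to control and RetSat ko 5 farthest, and control 2 was the lowest control library. The means were 108 ± 5.69 CPM in RetSat ko and 142 ± 10.7 CPM in control (SD, n = 5 each), and the log2 fold change was -0.40 ± 0.0678 (SE). Il18bp, on the other strand, overlaps 80 exonic bases (1.01%) and stood at 3.49 to 5.43 CPM in RetSat ko and 2.93 to 8.55 CPM in control.

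Nedd9 (ENSMUSG00000021365.16, chr13:41463057-41640838, minus strand) had 33.2, 32.9, 36.5, 36.4 and 28.9 CPM in RetSat ko 1 to 5, against 43.8, 42.3, 54, 47.7 and 46.6 CPM in control 1 to 5. RetSat ko 5 was again the lowest, as for March7 and Numa1, and control 3 was the highest. The means were 33.6 ± 3.12 CPM in RetSat ko and 46.9 ± 4.54 CPM in control (SD, n = 5 each), and the log2 fold change was -0.48 ± 0.0844 (SE). Its relative Bcar1, the p130Cas scaffold, averaged 126 ± 13.2 CPM in RetSat ko and 146 ± 9.28 CPM in control, at -0.21 ± 0.0794 with an edgeR adjusted p of 0.335.

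Txlng (ENSMUSG00000038344.15) lies at chrX:161561915-161612450 on the minus strand. It had 11.8, 12.5, 13.1, 14.5 and 14.2 CPM in RetSat ko 1 to 5, against 17.2, 16, 18.3, 18.6 and 19.8 CPM in control 1 to 5. Its mean was the lowest of the 8 genes in RetSat ko, while Txnl4a was lower in control, and RetSat ko 1 lay farthest from control. The means were 13.3 ± 1.15 CPM in RetSat ko and 18 ± 1.46 CPM in control (SD, n = 5 each), and the log2 fold change was -0.44 ± 0.0826 (SE). With the 4 acinar-rich libraries (RetSat ko 1 and 2, control 4 and 5) left out it was -0.30, a value that differs by more than the spread within groups. Its counts are uncertain in part, since 12.6% of its 50-base words occur in other transcripts, most of them in Gm8258, and since Rbbp7 on the other strand overlaps 174 exonic bases (2.31%). Rbbp7, a histone-binding protein, stood at 83.2 to 116 CPM in RetSat ko and 87.4 to 100 CPM in control, at 0.16 ± 0.0883. The related Txlna averaged 30.4 ± 2.62 CPM in RetSat ko and 29.8 ± 1.28 CPM in control, at 0.03 ± 0.0703.

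Txnl4a (ENSMUSG00000057130.13, chr18:80250010-80269070, plus strand) had 19.2, 19.4, 20, 19.7 and 20.7 CPM in RetSat ko 1 to 5, against 16.7, 15.9, 16.4, 15.4 and 16.4 CPM in control 1 to 5. It was the least spread of the 8 genes in both groups, with a coefficient of variation of 2.99% in RetSat ko and 3.25% in control. The means were 19.8 ± 0.592 CPM in RetSat ko and 16.1 ± 0.524 CPM in control (SD, n = 5 each), and the log2 fold change was 0.29 ± 0.0572 (SE), the smallest of the 8. Exons of Gm16286 on the same strand cover 457 bases, or 10.1%, of its exonic length. Gm16286 was at 42.8 to 49.1 CPM in RetSat ko and 38.7 to 44.6 CPM in control, at 0.13 ± 0.062. A read reaching beyond the overlap was counted for the gene it overlaps most, a rule that cannot place a read wholly inside it. Of the 50-base words of Txnl4a, 13.1% occur in other transcripts and 10.8% in Gm16286, so its counts are also uncertain in part.

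March7 (ENSMUSG00000026977.18, chr2:60040231-60081020, plus strand) had 55.2, 54.6, 53.1, 56.2 and 44 CPM in RetSat ko 1 to 5, against 69.7, 76.1, 78.3, 69.7 and 76.3 CPM in control 1 to 5. The gap between the groups was the widest of the 8 genes at 0.31 on the log2 scale, and RetSat ko 5 stood below the other RetSat ko libraries. The means were 52.6 ± 4.94 CPM in RetSat ko and 74 ± 4.03 CPM in control (SD, n = 5 each), and the log2 fold change was -0.49 ± 0.0744 (SE). March5, which sits on mitochondria and had the highest level per length of this ligase family, averaged 86.3 ± 6.41 CPM in RetSat ko and 95.6 ± 6.82 CPM in control, at -0.15 ± 0.0714 with an edgeR adjusted p of 0.424.

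Tnfsf10 (ENSMUSG00000039304.12, chr3:27371177-27396576, plus strand) had 50.9, 51.8, 49.7, 54.9 and 49.9 CPM in RetSat ko 1 to 5, against 70.1, 74.4, 73.8, 58.9 and 60.9 CPM in control 1 to 5. The RetSat ko libraries lay close together, while control 4 and 5 stood apart below the other control libraries and near RetSat ko 4. The means were 51.4 ± 2.14 CPM in RetSat ko and 67.6 ± 7.26 CPM in control (SD, n = 5 each), and the log2 fold change was -0.40 ± 0.076 (SE). Control 4 and 5 also had the highest acinar sums among the control libraries, and with the acinar-rich libraries left out the log2 fold change was -0.50. Their plasma cell sums were likewise the highest among the control libraries, at 1054 and 980 CPM against 422 to 492 CPM in control 1 to 3. All RetSat ko libraries, at 549 to 983 CPM, were also above control 1 to 3 in this sum. Control 1 to 3, the libraries with the most Tnfsf10, were thus those with the lowest plasma cell sums. RetSat ko 2 and 1, the richest in acinar markers (2708 and 503 CPM), lay within their group at 51.8 and 50.9 CPM. The part of either cell type was not tested. Tnfrsf10b, the receptor of TRAIL in the mouse that carries a death domain, averaged 9.85 ± 1.46 CPM in RetSat ko and 9.76 ± 0.849 CPM in control, at 0.01 ± 0.108 (singled out after its value was seen).

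**Figure D1:**
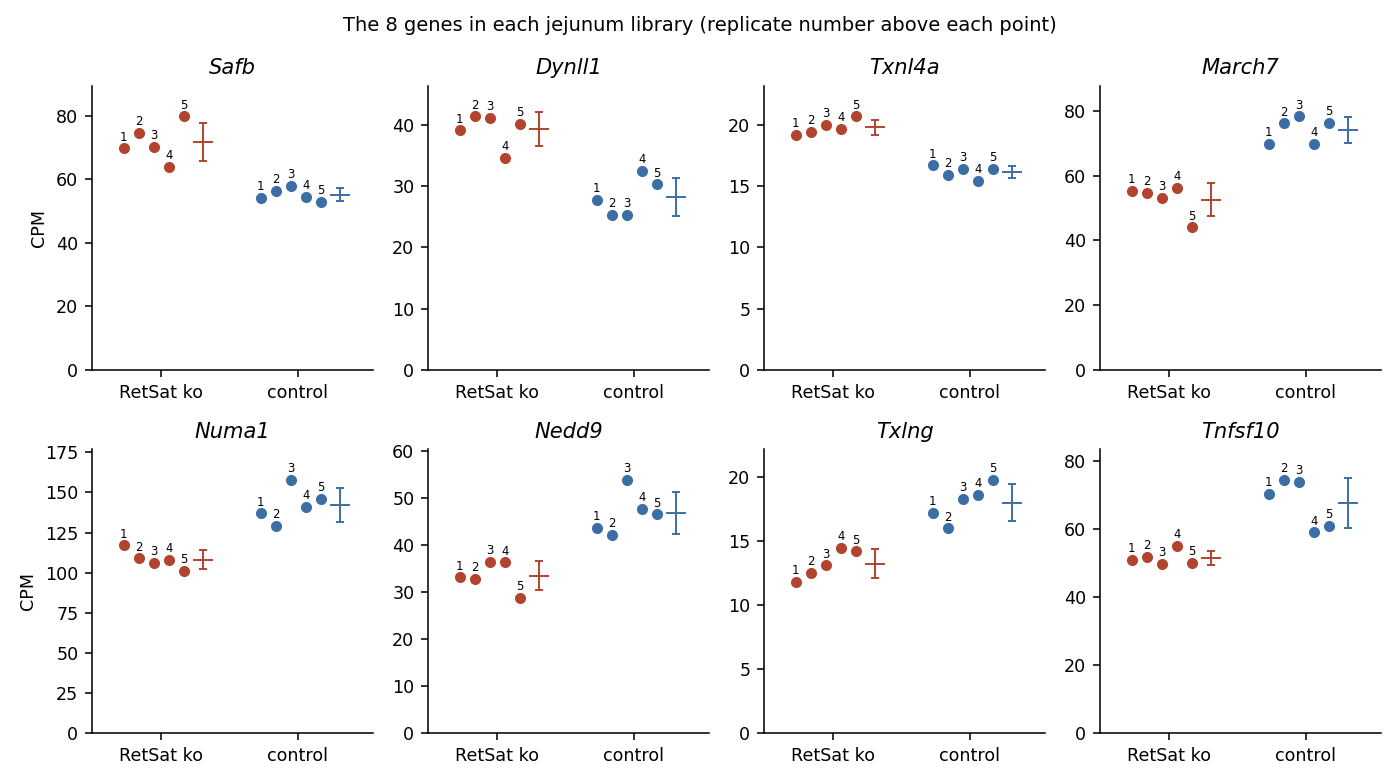
Level of each of the 8 genes in CPM (vertical axes from 0) in the 5 RetSat ko libraries (red) and the 5 control libraries (blue), with the replicate number above each point and the mean ± SD beside the points. In every panel the groups are apart, by the widest gap in March7 (0.31 on the log2 scale) and the narrowest in Dynll1 (0.09).

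The separation depends on the scaling of the libraries. In raw counts, 3 of the 8 genes had non-overlapping groups (March7, Numa1 and Dynll1) and 5 overlapped, where 78 of 15182 protein-coding genes (0.514%) did not overlap. Scaled to library totals without TMM factors, Tnfsf10 was the 1 gene to overlap, at 45.2 to 59.2 counts per 1000000 in RetSat ko and 58.7 to 75.8 in control. RetSat ko 5 was the library farthest from control in 5 of the 8 genes, and RetSat ko 4 was the nearest in 5. RetSat ko 1 was the nearest in 2 genes, Numa1 and Txnl4a.

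Per length, Numa1 had the highest level of the 8 genes in both groups, with 36.6 ± 1.9 TPM in RetSat ko and 46.9 ± 2.44 TPM in control (SD, n = 5 each; transcripts per 1000000, computed over exonic length), and it did not overlap the next gene in either. In RetSat ko, Dynll1 (23.4 to 29.8 TPM), Safb (22.4 to 30.7 TPM) and Tnfsf10 (22.5 to 29.7 TPM) followed and overlapped, and Nedd9 (12.1 to 16.2 TPM), March7 (11.8 to 15.4 TPM) and Txnl4a came after them, each overlapping the next. In control, Tnfsf10 was second and apart at 29.7 to 38.7 TPM, and Safb (18.7 to 21.2 TPM), Nedd9 (17.5 to 20.8 TPM), Dynll1 (15.9 to 23.2 TPM) and March7 (17.1 to 20 TPM) formed an overlapping run. Txnl4a (9.92 to 12.8 TPM in RetSat ko and 8.89 to 9.64 TPM in control) came next to last. Txlng was last in both, at 3.65 to 5.48 TPM in RetSat ko and 5.8 to 6.85 TPM in control, and did not overlap Txnl4a.

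The number of the 8 genes past an adjusted p of 0.05 changed with the fit, and is given as a description only, since every fit uses the contrast that chose the genes. With DESeq2, 8 passed, where 123 of 18654 genes did (0.659%). Without RetSat ko 1, edgeR passed 8, where 846 of 19001 genes did (4.45%). With limma-voom and sample weights 2 passed, where 12 genes did (0.0643%), and with edgeR and no filter on low counts 1 passed, where 9 of 33283 did (0.027%). In each other setting 0 of the 8 passed. RetSat ko 1 had the highest enterocyte sum (61425 CPM) and the lowest sum of proliferation markers (466 CPM) of the RetSat ko libraries, and the part of this in the counts without it was not tested. The log2 fold changes themselves moved little. Of 168 values recomputed under 21 alternatives for each gene, 167 stayed within 1 SD of the spread within groups and 0 reversed. The exception was Txlng without the acinar-rich libraries. That 0 reversed is no support, since choosing genes without overlap in these same counts largely fixed the direction beforehand.

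**Figure D2:**
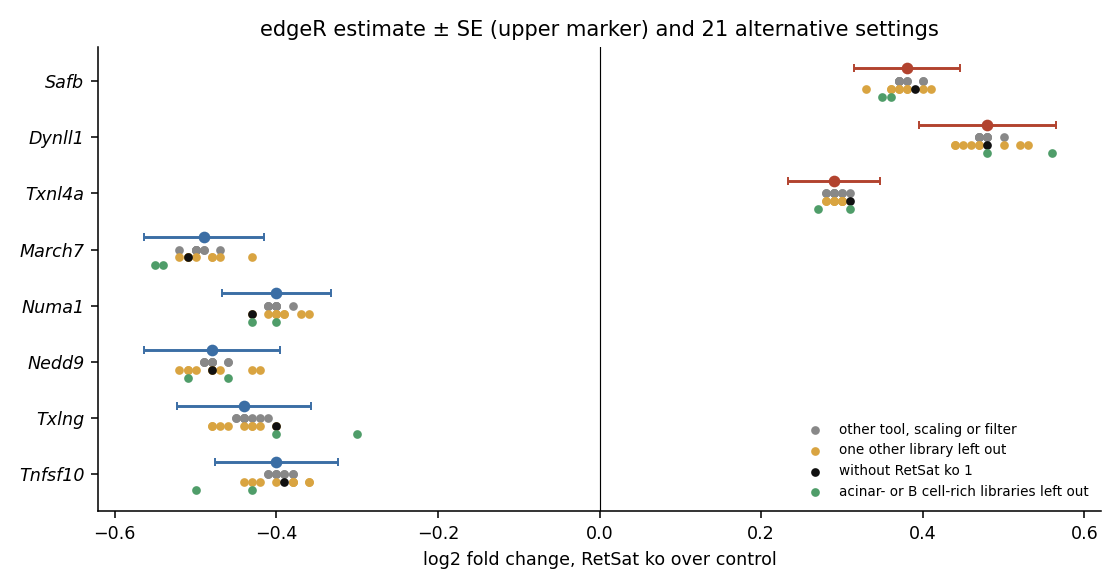
Log2 fold change of RetSat ko over control for each of the 8 genes (horizontal axis), with the edgeR estimate ± SE above and the values under 21 alternatives below it, coloured by kind. All points of a gene stay on one side of 0, which the choice of genes without overlap largely fixed beforehand. The point farthest from its estimate against the spread within groups is Txlng at -0.30 without the acinar-rich libraries.

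The partner genes of the 8 proteins, taken from 9 lists, are a comparison that the choice of the 8 genes did not use. Of 141 listed genes, 138 were tested. With edgeR 0 passed an adjusted p of 0.05 (smallest adjusted p 0.291), and limma-voom also called 0. At an unadjusted p under 0.05 there were 31 of 138 (22.5%, 19 higher and 12 lower in RetSat ko), beside 12.2% of all tested genes (6.79% higher and 5.45% lower). Non-overlapping groups were seen in 7 (5.07%), beside 2.31% of all tested genes. The list around TXNL4A alone held 11 of the 31 and 4 of the 7. The shares over all tested genes include many at low counts. Under the filter of 1 CPM in 5 libraries, 2079 of 13210 genes had an unadjusted p under 0.05, and 2.79% did not overlap. The former is a share between the 12.2% of all tested genes and the 22.5% of the partner genes. DESeq2 called 3, beside 0.659% of all genes, which were Snrpg and Snrpd1 (both at 0.36, adjusted p 0.0349 and 0.0465) and Afdn (-0.20, adjusted p 0.0459). Without RetSat ko 1, edgeR called 20 of the 138, where it called 4.45% of all genes. These lists were written with earlier results of these data known.

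The partners of TXNL4A in the U5 particle and the U4/U6.U5 tri-snRNP held the most genes at a low p. Of 21 tested, 11 had an unadjusted p under 0.05, all with a positive log2 fold change, 0 passed the adjusted threshold with edgeR, and the list's median was 0.19 beside 0.020 over all tested genes. Snrpg, an Sm ring protein, averaged 17.4 ± 1.61 CPM in RetSat ko and 13.4 ± 1.34 CPM in control (SD, n = 5 each), at 0.37 ± 0.0899 (adjusted p 0.291). Snrpd1, of the same ring, averaged 35.6 ± 4.21 CPM in RetSat ko and 27.6 ± 2.28 CPM in control, at 0.37 ± 0.0902 (adjusted p 0.291). The groups did not overlap in 4 of the 21, beside 2.31% of all tested genes. They were Snrpg, Snrpe (45.4 to 54.9 CPM in RetSat ko, 32.4 to 44.2 CPM in control), Snrpb (97.6 to 113 CPM in RetSat ko, 85.6 to 96.9 CPM in control) and Prpf3 (21.3 to 26.2 CPM in RetSat ko, 19.6 to 21.1 CPM in control), named after their values were seen. Txnl4b, the paralogue of Txnl4a, averaged 9.98 ± 0.745 CPM in RetSat ko and 9.49 ± 0.634 CPM in control, at 0.07 ± 0.0812. The 11 genes with a low p were short, with a median exonic length of 2618 bases against 5786 bases for the other 10, and length is taken up again below.

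Among the dynein, dynactin and regulator genes that work with DYNLL1, 0 of 25 tested had an unadjusted p under 0.05 on the higher side and 3 on the lower side, with a median of 0.01. Dync1h1, the dynein heavy chain, averaged 255 ± 14.4 CPM in RetSat ko and 290 ± 22.1 CPM in control (SD, n = 5 each), at -0.19 ± 0.0737 (edgeR adjusted p 0.353), without overlap. Dctn1, the large dynactin subunit, averaged 127 ± 6.99 CPM in RetSat ko and 143 ± 8.95 CPM in control, at -0.18 ± 0.0648 (edgeR adjusted p 0.331). Of 10 genes of proteins that regulate or bind DYNLL1, 1 was on the lower side at an unadjusted p under 0.05. That was Ambra1, an autophagy regulator, with 35 ± 3.14 CPM in RetSat ko and 40 ± 2.84 CPM in control, at -0.19 ± 0.0756. Bcl2l11, which encodes the death protein BIM that DYNLL1 holds on the cytoskeleton, was at 5.86 ± 0.904 CPM in RetSat ko and 6.94 ± 0.775 CPM in control, at -0.24 ± 0.125.

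Of 16 spindle orientation partners of NuMA, 1 was higher and 3 were lower at an unadjusted p under 0.05, with a median of -0.05. Afdn, a junction protein that takes part in spindle orientation, averaged 75.4 ± 2.79 CPM in RetSat ko and 86 ± 3.08 CPM in control (SD, n = 5 each), at -0.19 ± 0.0531 (edgeR adjusted p 0.291), without overlap. Pard3, a polarity scaffold, averaged 46.9 ± 3.84 CPM in RetSat ko and 55.4 ± 5 CPM in control, at -0.24 ± 0.0782. Among 16 partners of NEDD9, 13 had a negative log2 fold change and the median was -0.11, with 1 higher and 1 lower at an unadjusted p under 0.05. The higher one was Aurka, Aurora A, with 24.9 ± 4.45 CPM in RetSat ko and 19.6 ± 0.369 CPM in control, at 0.35 ± 0.109, and the lower one was Bcar1. Aurka ranged over 18.7 to 29.2 CPM in RetSat ko and 19.2 to 20.2 CPM in control, so the groups overlapped.

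Of 12 scaffold attachment and nuclear matrix genes beside Safb, 1 was higher and 0 were lower at an unadjusted p under 0.05, with a median of 0.09. That gene was Lmnb1, lamin B1, with 60.9 ± 11.6 CPM in RetSat ko and 49.7 ± 3.34 CPM in control (SD, n = 5 each), at 0.29 ± 0.123 (edgeR adjusted p 0.369). Hnrnpul1, an RNA-binding relative of hnRNP U, was at 128 ± 6.63 CPM in RetSat ko and 139 ± 4.31 CPM in control, at -0.12 ± 0.0577. Of 10 taxilins and taxilin partners, 3 were higher and 0 lower at an unadjusted p under 0.05, with a median of 0.13. Atf4 averaged 178 ± 15.2 CPM in RetSat ko and 154 ± 12 CPM in control, at 0.21 ± 0.078 (edgeR adjusted p 0.331). Nek2, a centrosomal kinase that phosphorylates gamma-taxilin in human cells, averaged 27.4 ± 4.84 CPM in RetSat ko and 21.9 ± 2.41 CPM in control, at 0.32 ± 0.123. Naca, a nascent-chain binding subunit named after its values were seen, did not overlap, at 229 to 261 CPM in RetSat ko and 201 to 228 CPM in control.

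In the MARCH family, 8 of 10 listed genes were tested, with 1 higher and 2 lower at an unadjusted p under 0.05 and a median of 0.03. March6, a ligase of the endoplasmic reticulum that degrades sterol synthesis enzymes, averaged 208 ± 34.6 CPM in RetSat ko and 266 ± 29.6 CPM in control (SD, n = 5 each), at -0.35 ± 0.115 (edgeR adjusted p 0.311). March3 had a low level at 0.57 ± 0.0597 CPM in RetSat ko and 0.419 ± 0.063 CPM in control, at 0.44 ± 0.181. Of 20 TRAIL receptor and death signalling genes, 1 was higher and 2 were lower at an unadjusted p under 0.05, with a median of -0.08. Xiap, a caspase inhibitor, averaged 108 ± 16.7 CPM in RetSat ko and 136 ± 21.4 CPM in control, at -0.33 ± 0.124 (edgeR adjusted p 0.334). Bax, a pore-forming death protein of mitochondria, averaged 29.3 ± 1.7 CPM in RetSat ko and 25.6 ± 2.65 CPM in control, at 0.19 ± 0.0798.

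**Figure D3:**
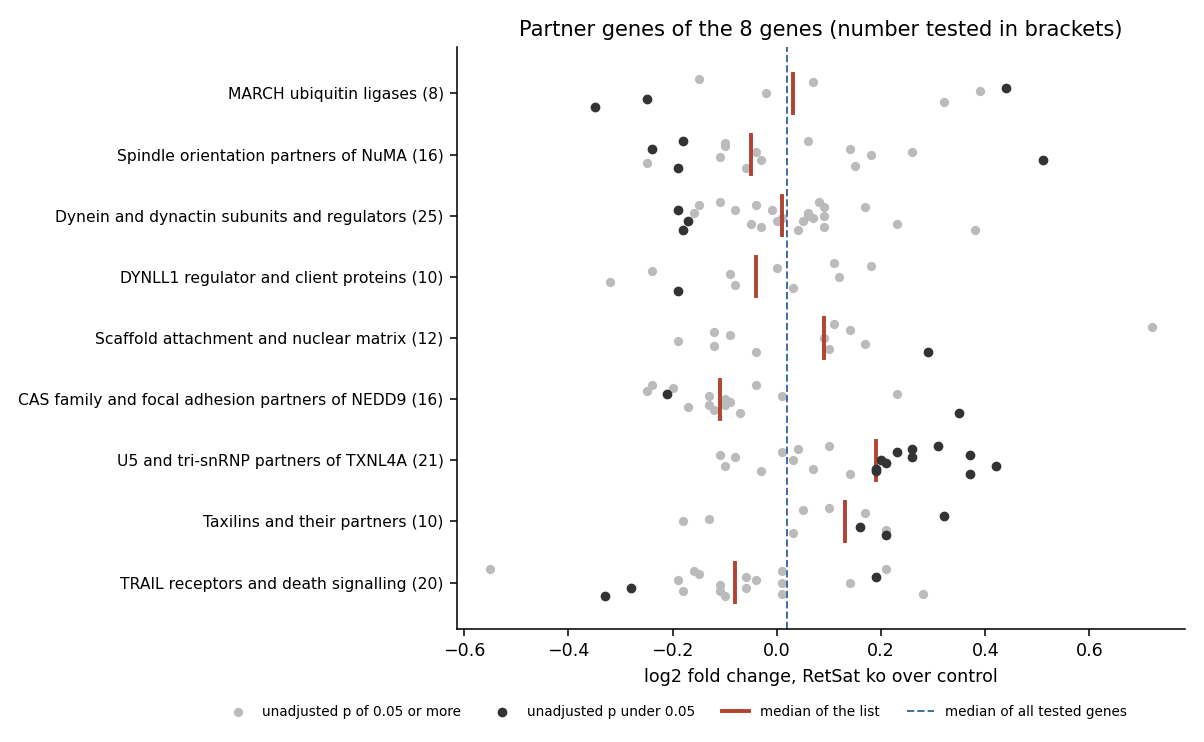
Log2 fold change of RetSat ko over control (horizontal axis) of the 138 tested partner genes in 9 lists, dark where the unadjusted p was under 0.05, with each list's median as a red bar and the median of all tested genes (0.020) as a dashed line. The U5 and tri-snRNP list has the highest median (0.19) and the list around NEDD9 the lowest (-0.11).

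Within genotypes, 1 pair of the 8 genes varied together past the test. Log2 CPM was centred in each genotype, and Pearson r and Spearman rho over the 10 libraries were tested for all 28 pairs by an exact permutation test within genotypes. The median r was -0.04, with 0.13 over the 13 pairs of genes that differed between genotypes in the same direction and -0.18 over the 15 pairs of opposite direction. The 1 of 28 pairs past an adjusted p of 0.05 was Dynll1 and Tnfsf10, which ran in opposite directions, with r = -0.93 (exact p 0.00167, adjusted over 28 pairs 0.0467) and rho = -0.88 (exact p 0.00826, adjusted 0.231). Without RetSat ko 4 and control 4, the libraries farthest from the median of Dynll1, r was -0.91. With 1 library left out in turn r was -0.97 to -0.89 and the adjusted p 0.0194 to 0.233, and it was under 0.05 in 1 of those fits, without RetSat ko 2. Among control libraries the pattern was a split. Control 4 and 5 had 32.5 and 30.3 CPM of Dynll1, with 25.3 to 27.8 CPM in control 1 to 3. For Tnfsf10 they had 58.9 and 60.9 CPM, with 70.1 to 74.4 CPM in control 1 to 3. They also had the highest acinar and plasma cell sums of the control libraries, and the part of this in r was not tested. The next pair was Numa1 and Nedd9 with r = 0.70 (exact p 0.0344, adjusted 0.482), rho = 0.61 (exact p 0.0884, adjusted 0.705) and r = 0.41 without control 2 and control 3.

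**Figure D4:**
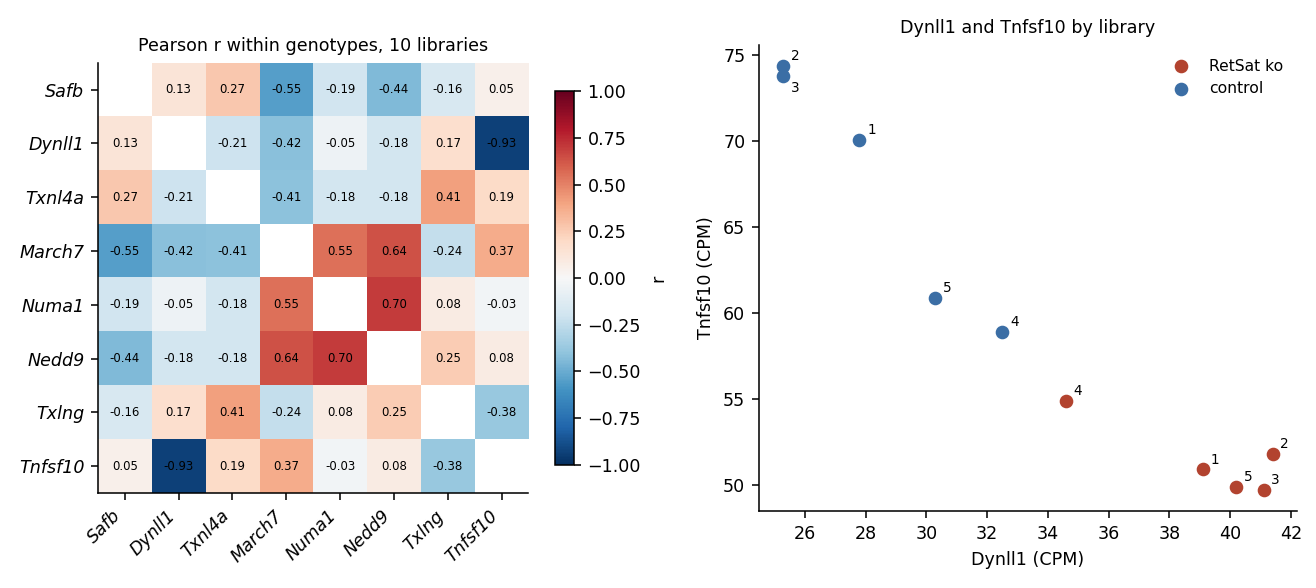
Left, Pearson r of log2 CPM centred within genotypes for all 28 pairs of the 8 genes over 10 libraries (colour scale from -1 to 1). Right, Tnfsf10 against Dynll1 in CPM in the RetSat ko (red) and control (blue) libraries with replicate numbers, with r = -0.93 after centring within genotypes. Among the RetSat ko libraries, RetSat ko 4 has the lowest Dynll1 and the highest Tnfsf10, and the other 4 lie close together without an inverse order. Among the control libraries, control 4 and 5 have the highest Dynll1 and the lowest Tnfsf10.

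The genes whose variation within genotypes was most like that of each of the 8 were sought among 13226 tested genes of at least 1 CPM, by Pearson r over the same 10 libraries. These r values are the highest of many, come without a test, and rest on libraries that differ in acinar and B cell transcripts. The likest gene to Numa1 was Tnks, tankyrase, a known binding partner of NuMA, at r = 0.954, followed by Sgms1 (0.954). Tnks averaged 54.1 CPM in RetSat ko and 74 CPM in control, at -0.45 ± 0.0953 with an edgeR adjusted p of 0.291. Nedd9 was most like 1700097N02Rik (0.925) and Maf (0.916), and March7 most like Stk11ip (0.885) and Zfp628 (0.870). Txlng was most like Rundc3b (0.964), Dynll1 like Rasgrp4 (0.936) and Tnfsf10 like Gm27042 (0.947). Txnl4a was most like Cdk20 (0.943) and Safb most like Gm6472 (0.889), a pseudogene, with Pdrg1 (0.865) at place 3.

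The 8 genes shared no chromosome, as they lie on 8 different ones. With all tested genes, coding or not, divided by exonic length into 5 classes of equal size, 0 of the 8 fell in classes 1 and 2, Dynll1 in class 3, Nedd9, Txnl4a and Tnfsf10 in class 4 (4474 to 6783 bases) and March7, Numa1, Safb and Txlng in class 5 (6784 bases and more). Dynll1, at 3890 bases, was near the median of 3682 bases. Length went with the direction of separation over all tested genes. Genes higher in all RetSat ko libraries made up 2.95% of class 1 and 0.456% of class 5. Genes lower in all RetSat ko libraries made up 0.322% of class 1 and 1.69% of class 5. The median log2 fold change was 0.090 in class 1 and -0.039 in class 5. Safb, higher in RetSat ko, was thus in a class where 17 genes were higher without overlap and 63 were lower.

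A comparison of length library by library was added after the data were seen. Over 8369 coding genes of at least 10 CPM, the median log2 level of the longest class of these genes (7878 bases and more) minus that of the shortest (up to 2573 bases), relative to the mean of all libraries, was -0.08 ± 0.05 in RetSat ko and 0.08 ± 0.10 in control (SD, n = 5 each). The difference of -0.15 had a two-sided exact permutation p of 0.0238. RetSat ko 4 (0.01) and control 5 (-0.01) crossed, so the groups overlapped, and control 4 was the highest at 0.24. Without the acinar-rich libraries the difference was -0.12 (exact p 0.2, smallest possible 0.1), and with the 3 B cell-rich libraries (RetSat ko 2 and 3, control 4) set aside it was -0.09 (exact p 0.171, smallest possible 0.0571). Partner genes lower at an unadjusted edgeR p under 0.05 were 3253 to 16386 bases long. Those higher, outside the list around TXNL4A, were 1576 to 6805 bases long. How far transcript length takes part in the differences of the 8 genes, or of the partner genes in any list, was not tested.

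**Figure D5:**
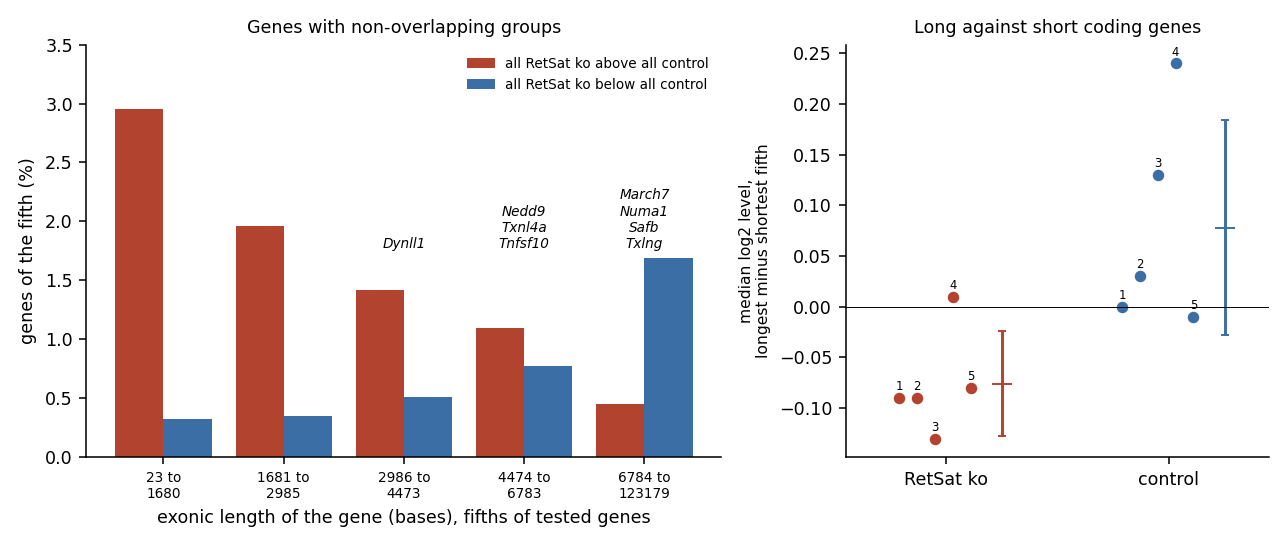
Left, share of tested genes in each of 5 classes of exonic length (bases) with all RetSat ko libraries above all control libraries (red) or below them (blue), with the 8 genes written above their class. Right, for each library, the median log2 level of the longest coding genes minus that of the shortest, with replicate numbers and mean ± SD, at -0.08 ± 0.05 in RetSat ko and 0.08 ± 0.10 in control.

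Promoter windows of 300 bases were found in RefSeq for 7 of the 8 genes and searched on both strands. The CCAAT box, CCAAT, was in 4 of the 7 (Nedd9, Dynll1, Txlng and Tnfsf10), beside 37.4% of 32544 distinct promoter windows. The GC box, GGGCGG, was in 4 of the 7 (March7, Nedd9, Dynll1 and Txlng), beside 35.9%. A single site of the retinoic acid response element, AGGTCA, was in the window of Tnfsf10 alone, at base 256, beside 16.2% of windows. The full element, a direct repeat of that site, was in 0 of the 7 and in 0.00922% of windows. The palindromic oestrogen response element was in 0 of the 7, beside 0.0707%, and the core of the interferon-stimulated response element in 0 of the 7, beside 3.45%. Matches describe letters and do not show that a factor binds. For sequences as rare as these last 3, finding 0 in 7 windows says little.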

How the data were processed

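Each of the 10 deposited files holds 1 library as raw read counts per gene. Trimming was with Trimmomatic and alignment with STAR to mouse build GRCm39 (mm39), per the submitters' processing notes. Per the file headers, featureCounts 2.0.1 counted exons of GENCODE M28 genes by largest overlap, with no option for strand, read pairs or multiple alignments, so overlapping genes on opposite strands are not separated and reads shared by near-identical genes are not counted. Symbols matched 52133 of 55414 identifiers (94.1%). Symbols, gene types and transcript words came from a GENCODE M21 annotation and promoters from RefSeq, both of GRCm38, and no genome of the files' build was used.

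Counts were fitted over all tested genes in R 4.3.3 with edgeR 4.0.16 (filterByExpr, TMM, robust quasi-likelihood F-test, two-sided, without covariates). P-values were adjusted over 18654 genes by Benjamini-Hochberg, and 0.05 was the threshold. Library sums were compared by exact permutation tests, and pairs by shuffling within genotypes on log2 CPM with a prior count of 2. Alternatives were RLE and upper-quartile factors, unadjusted totals, DESeq2 1.42.0, limma-voom 3.58.1 (also with sample weights), 1 CPM in 5 libraries or nothing as the filter, a block for the replicate number, non-robust estimates, a prior count of 0.5 and leaving out each library. The 8 genes, the partner and marker lists and the tests were chosen with earlier results of these data known. Named are the 8 genes, in each partner list the 2 genes with the smallest p, any called gene and a paralogue, and for each gene up to 3 genes most like it. Over 45 pairs of libraries the lowest chi-square per degree of freedom was 49.6, so none were duplicates. On simulated counts the fit recovered 40% of 50 genes changed 1.5-fold and 88% of 50 changed 2-fold, with 8 false calls among 168. Changes as small as those of the 8 genes were not simulated. A gene that was not called is therefore not shown to be unchanged. The promoter of Txnl4a and protein sequences were not used here.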

Additional observations from a re-analysis of the deposited data

Results flagged for a closer look

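March7 in RetSat ko 5, at 44 CPM, stood apart from the other 4 RetSat ko libraries, which lay at 53.1 to 56.2 CPM. The gap to the nearest library was 0.745 of the range of the group, past the limit of Dixon's test for 5 values. Over 26 groups of 5 libraries (13 genes in 2 genotypes) this was the 1 such value, where chance gives about 1 in 20. Without RetSat ko 5 the log2 fold change of March7 was -0.43, against -0.49 with it.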

How the results depend on the processing

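The number of genes called by edgeR (6) was 123 with DESeq2 and 12 with limma-voom and sample weights, and 5 to 846 with 1 library left out, the highest without RetSat ko 1. The number with non-overlapping groups (430) was 484 to 2290 with 1 library left out, again highest without RetSat ko 1, and 4412 with the 4 acinar-rich libraries left out or 1068 with the 3 B cell-rich ones left out, where fewer libraries make separation easier. Partner genes called (0) were 3 with DESeq2 and 0 to 20 with 1 library left out, 20 being without RetSat ko 1. Pairs that varied together (1) were 0 with upper-quartile factors and 0 to 1 with 1 library left out. The length difference (-0.15) was -0.12 when the acinar-rich libraries were left out and -0.09 when the B cell-rich ones were, and -0.18 to -0.11 with 1 library left out. The cause of these shifts was not tested. With the replicate number as a block, edgeR called 4 genes and 0 partner genes. No pairing by replicate number was visible, as same-numbered libraries correlated at -0.15 to 0.00 and none correlated best with its own number. This does not exclude a pairing. The log2 fold changes of the 8 genes kept their direction under all 21 alternatives, which the choice of genes without overlap largely fixed beforehand. The marker sums kept 0 lists past the threshold with RLE and upper-quartile factors. The fits that leave out acinar-rich or B cell-rich libraries, the unadjusted totals and the length comparison were chosen after seeing the data. Each of the 8 genes had at least 1205 counts in every library.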
